A study of Mus musculus with 24 samples.

Results

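The genes examined were 10 of vascular calcification and the osteoprotegerin axis, out of the 18539 named on the array, over all 24 arrays of the study. They were osteoprotegerin (Tnfrsf11b), its ligand RANKL (Tnfsf11), the receptor RANK (Tnfrsf11a), matrix Gla protein (Mgp), osteopontin (Spp1), the bone morphogenetic proteins Bmp2 and Bmp4, tissue-nonspecific alkaline phosphatase (Alpl), the transcription factor Runx2 and the ectonucleotidase Enpp1. The members were taken by name, and their 15 probes, of 41174 in all, were found through the transcript accession of each probe. For each gene the brightest probe in a tissue was used, and for comparisons across tissues the brightest over all 24 arrays. Male wild-type C57BL/6 mice (WT) and mice of the same background in which a part of Lgals3, the gene for galectin-3, had been deleted on both chromosomes (KO) were fed a high-fat diet (HFD, 60% of calories from fat) or chow (12%) for 8 weeks, starting at 8 weeks of age. In each of 3 experiments, cells of 3 or 4 mice per group were pooled, and CD105+/CD45- cells were sorted from digests of the aorta and of leg muscle. This gave 8 groups of tissue, strain and diet with 3 arrays each, and each array is 1 pool of mice. The sort keeps cells by 1 endothelial surface protein, and fewer cells of a type and less RNA per cell cannot be told apart in such bulk samples.

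Osteoprotegerin is a secreted decoy receptor that binds RANKL and so keeps it from RANK, the receptor through which osteoclasts form; endothelial and smooth muscle cells of arteries make it, and it is a known marker of vascular disease. Calcification of the artery wall is held back by Mgp, which binds BMPs and mineral, by osteopontin, and by the pyrophosphate that Enpp1 makes from ATP outside the cell. Alkaline phosphatase breaks that pyrophosphate down, and BMP2, BMP4 and RUNX2 drive cells toward a bone-forming state.

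Levels are given as log2 of the background-subtracted signal over the 75th percentile of the array, so that 0 is the signal of a probe at that percentile. Levels of different probes cannot be set against each other. A gene was tested in a tissue when all 3 arrays of 1 group or more placed its probe well above background. A difference was called where limma, after Benjamini-Hochberg adjustment over all probes tested, gave a p under 0.05. By this rule 8 of the 10 genes were tested in each tissue. Neither probe for Tnfsf11 was well above background on any of the 24 arrays, and Bmp2 was well above background on 3 of 12 aorta and 3 of 12 muscle arrays. For these ligands the arrays give no usable level.

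The 75th percentile of the arrays lay between 2390 and 5938, and all 12 endothelial markers (such as Pecam1 and Cdh5) were well above background on every array in both tissues. The Lgals3 probe, for galectin-3, was well above background on all 24 arrays, and its level ran from 0.90 to 3.20 in WT aorta, 2.40 to 4.53 in KO aorta, 3.27 to 4.98 in WT muscle and 4.31 to 6.31 in KO muscle. Where this probe lies in the gene with respect to the deletion is not given in the sources used here, so it checks no label. Each array was also placed at 35 probes that were chosen because they separated the strains in experiments 2 and 3, on a scale from 0 (mean of those WT arrays) to 1 (mean of those KO arrays). In experiment 1, which had no part in that choice, the chow arrays lay at 0.0421 (aorta) and 0.0848 (muscle) for WT and at 1.02 and 0.908 for KO. The HFD arrays of experiment 1 lay in between. In aorta the array labelled WT was at 0.196 and the array labelled KO at 0.335, and in muscle they were at 0.331 and 0.405. Strain labels are used as given, and the values for the strains are also given by experiment or without experiment 1.

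**Figure D1:**
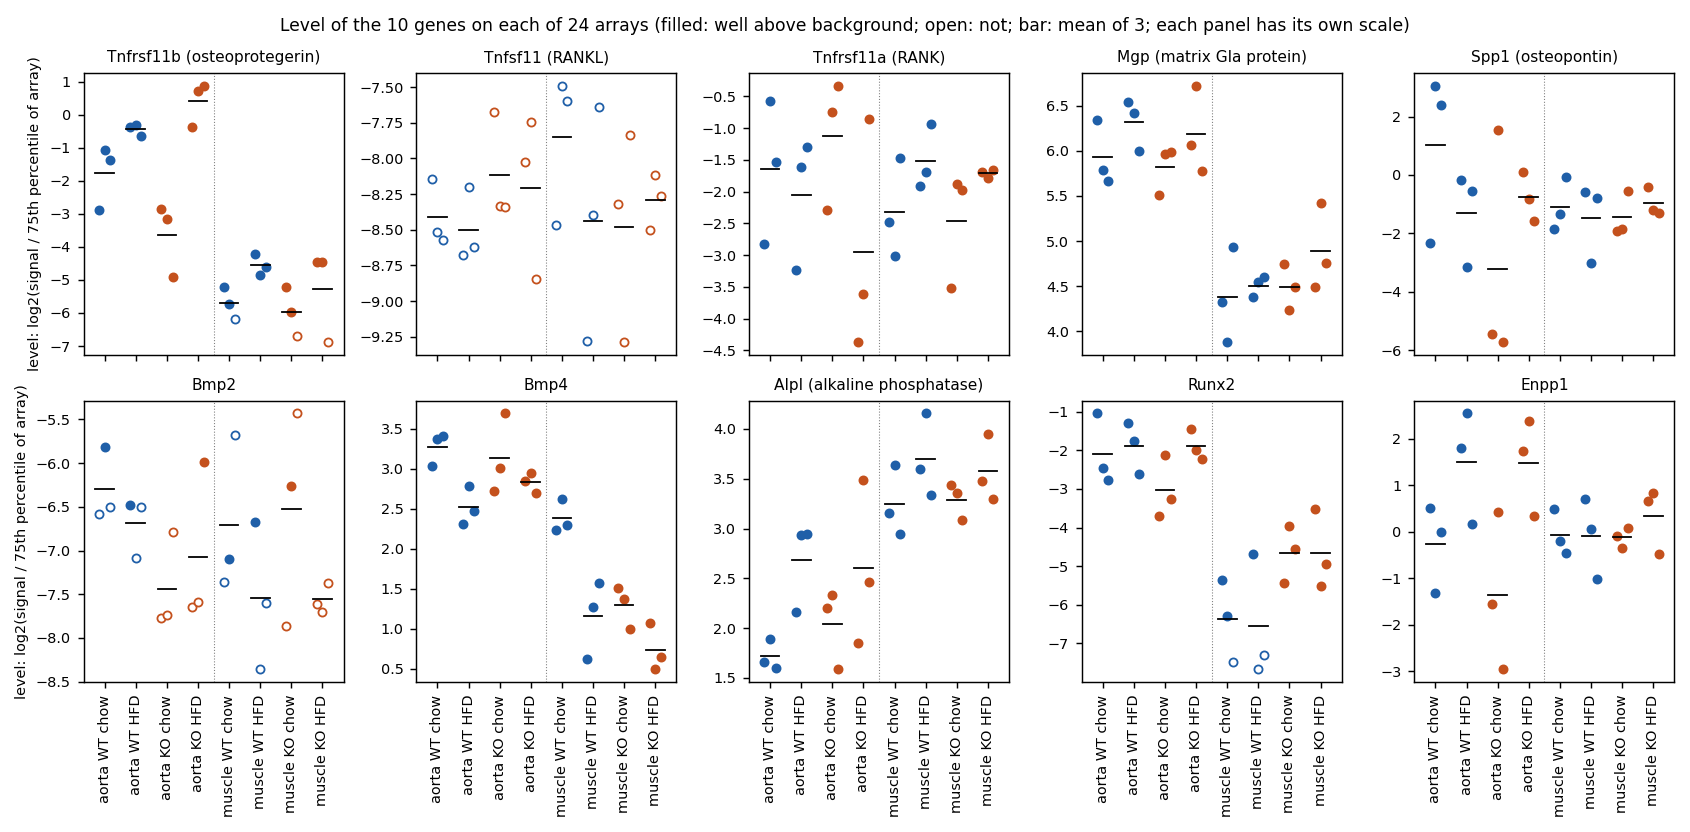
Level of each of the 10 genes (y axis, log2 of signal over the 75th percentile of the array, own scale per panel) on each array by group (x axis), with WT in blue and KO in orange. Filled points are well above background and open points are not; bars are means of 3 arrays. Tnfrsf11b, Mgp and Runx2 lie higher in aorta and Alpl lies higher in muscle, while every Tnfsf11 point is open.

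The first comparison was between endothelial cells of the aorta and of leg muscle, over strains and diets. Of the 8 genes tested, 5 differed: Tnfrsf11b, Runx2, Bmp4 and Mgp were higher in aorta, and Alpl was lower. In the same test 7718 of 27387 probes were called (28.2%), so that a call is common in this comparison. The median difference of all probes was -0.27, and that of the 8 genes was 0.91. This scale gives both tissues the same 75th percentile. The deposited log2 table, which sets the percentile separately within each tissue and higher in aorta, moved the median of all probes to -0.01 and turned the split of calls from 3143 higher and 4575 lower in aorta to 4190 higher and 2082 lower. The 5 calls and their directions were the same under that scaling.

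Tnfrsf11b showed the largest difference of the 8 genes, 4.02 (SE 0.44, adjusted p = 2.6e-06), which is 16.2-fold. Its level ran from -4.90 to 0.88 over the aorta arrays and from -6.88 to -4.21 over the muscle arrays, and all 12 matched pairs of aorta and muscle arrays were higher in aorta. The ranges overlap only through the aorta array of KO chow in experiment 3. In muscle the probe was well above background on 9 of 12 arrays.

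Runx2, which starts the osteoblast program, differed by 3.34 (SE 0.52, adjusted p = 0.00011). It lay between -3.69 and -1.04 in aorta and between -7.67 and -3.52 in muscle, higher in aorta in 12 of 12 pairs. Its second probe above background gave 3.06 (SE 0.53, adjusted p = 0.00031 by limma). That probe was well above background on 12 of 12 aorta arrays and 3 of 12 muscle arrays. It was tested only through aorta, where it was higher, so its p-value is no independent support. The remaining Runx2 probes were not well above background on any array. In muscle the brightest probe was well above background on 9 of 12 arrays, and those that failed were all WT.

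The promoter window of Runx2 is shown because it carries the RUNX core motif itself, with the windows of the other members that hold it. RefSeq windows of 300 bases (GRCm38.p6, mostly upstream of a gene's start and running a little past it) were found for 7 of the 10 genes: Tnfsf11, Tnfrsf11a, Spp1, Bmp4, Alpl, Runx2 and Enpp1. The motif TGTGGT, or its reverse complement ACCACA, was in 16.8% of all 32851 windows. Capitals mark each match. Runx2 holds 3 matches at chr17:44814578-44814877 on the minus strand, the first Spp1 window 1 match at chr5:104434861-104435160 on the plus strand, and Enpp1 1 match at chr10:24712110-24712409 on the minus strand.
Runx2: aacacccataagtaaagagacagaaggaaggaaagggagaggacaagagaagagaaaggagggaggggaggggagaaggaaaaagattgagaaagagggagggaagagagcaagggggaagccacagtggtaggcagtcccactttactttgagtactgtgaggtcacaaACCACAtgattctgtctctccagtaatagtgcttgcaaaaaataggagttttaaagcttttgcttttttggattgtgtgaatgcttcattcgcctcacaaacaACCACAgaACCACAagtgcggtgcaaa
Spp1: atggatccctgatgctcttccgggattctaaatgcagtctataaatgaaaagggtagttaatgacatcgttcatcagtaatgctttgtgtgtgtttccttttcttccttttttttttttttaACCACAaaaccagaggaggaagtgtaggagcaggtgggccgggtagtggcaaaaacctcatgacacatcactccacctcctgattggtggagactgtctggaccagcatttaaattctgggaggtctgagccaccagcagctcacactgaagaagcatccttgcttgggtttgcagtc
Enpp1: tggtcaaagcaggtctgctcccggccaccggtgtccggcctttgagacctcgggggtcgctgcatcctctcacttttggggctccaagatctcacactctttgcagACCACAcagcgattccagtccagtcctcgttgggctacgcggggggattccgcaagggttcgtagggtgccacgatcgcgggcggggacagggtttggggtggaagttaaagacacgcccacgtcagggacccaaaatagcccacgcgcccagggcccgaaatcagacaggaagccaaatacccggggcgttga
The windows of Tnfsf11, Tnfrsf11a, Bmp4 and Alpl and the second Spp1 window hold neither spelling. These letters are a description of the windows and show no binding.

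Bmp4, a ligand that drives bone formation and that endothelium makes under disturbed flow, was higher in aorta by 1.55 (SE 0.21, adjusted p = 2.2e-05), and Mgp, the inhibitor that binds BMPs, by 1.50 (SE 0.24, adjusted p = 0.00011). Mgp lay between 5.51 and 6.72 on the 12 aorta arrays and between 3.88 and 5.42 on the 12 muscle arrays, so the tissues did not overlap. Bmp4 ran from 2.32 to 3.69 in aorta and from 0.49 to 2.62 in muscle, where 1 WT chow array, at 2.62, reached into the aorta range. Both were higher in aorta in 12 of 12 pairs.

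Alpl, the phosphatase, went the other way. It was lower in aorta by 1.19 on the log2 scale (log2 difference -1.19, SE 0.23, adjusted p = 0.00089), lower in 12 of 12 pairs, with levels of 1.59 to 3.49 in aorta and 2.94 to 4.16 in muscle. Enpp1, the enzyme that makes pyrophosphate, differed by 0.32 with a 95% interval of -0.76 to 1.41 (adjusted p = 0.66). Tnfrsf11a differed by 0.06 (-0.97 to 1.08, adjusted p = 0.94) and Spp1 by 0.18 (-2.22 to 2.59, adjusted p = 0.92), where the interval leaves room for a difference of several-fold either way.

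**Figure D2:**
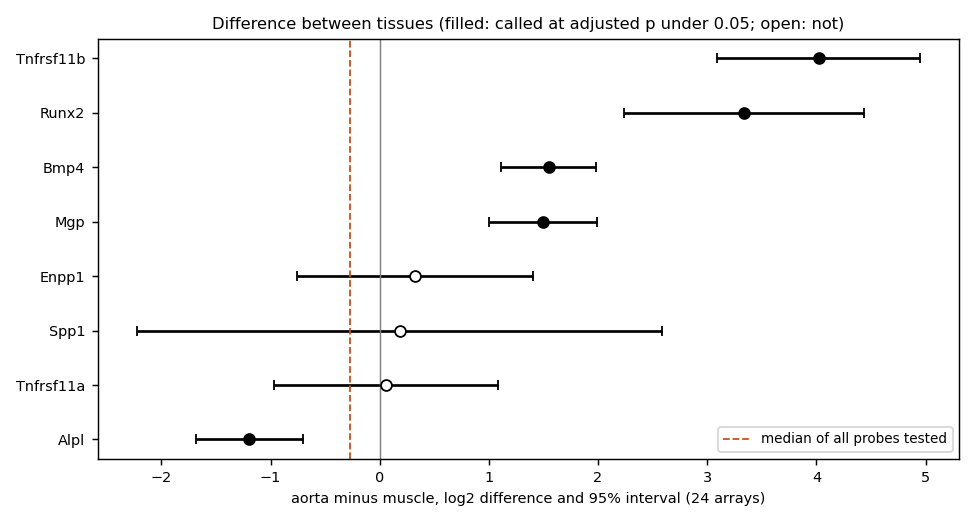
Aorta minus muscle difference (x axis, log2) of the 8 tested genes (y axis) with 95% intervals from limma over 24 arrays; filled points were called and open points were not. The dashed line is the median of all probes tested, at -0.27, and 4 genes lie to its right with their whole interval above 0.

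Sums of cell type markers also differed between the tissues. The fibroblast markers (10 genes such as Dcn and Lum) summed to 288 to 692 times the 75th percentile in aorta and 18.9 to 175 in muscle, and the cartilage markers (8 genes such as Acan and Comp) to 12.5 to 86.8 and 0.764 to 10.4. The endothelial markers summed to 162 to 517 in aorta and 499 to 800 in muscle. Among the cartilage markers Matn1 was not well above background on any aorta array, and Cnmd and Hapln1 on no muscle array. The part of these cells in the differences of the 8 genes was not tested.

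Genes of the same pathways differed between tissues too. Of 68 pathway genes tested, 28 were called higher in aorta and 15 lower, with a median of 0.46, beside the 28.2% of all probes called and their median of -0.27. A call in one of the smaller lists below is read against that share. Of the pathway genes 67 were tested in aorta and 56 in muscle, beside 25865 and 25682 of all probes. Genes tested only through aorta favour calls higher in aorta. The bone matrix and osteogenic factors had the highest median, 3.55, with 10 of 15 higher and 1 lower (Msx1). Only 10 of these 15 were tested in muscle, so the rest entered through aorta alone, which can raise the count and the median. The matrix proteins Omd at 5.80 (SE 0.42, adjusted p = 3.9e-08) and Col1a1 at 4.01 were among those higher. In the BMP pathway 9 of 27 were higher and 8 lower (median -0.10). The BMP antagonist follistatin (Fst) differed by 4.71 (SE 0.85, adjusted p = 0.00041 by limma). Fst was well above background on 12 aorta arrays and 8 muscle arrays. Bmpr1b, a BMP receptor, was well above background on 11 aorta arrays and 0 muscle arrays, so it was tested only through aorta. Its mean level in aorta was 7.04-fold above the mean of the lowest signals marked well above background on the muscle arrays. Eng, which encodes the sorted CD105, was lower in aorta by 1.08 on the log2 scale (log2 difference -1.08, SE 0.25). Of the RANK-OPG axis 2 of 8 were higher, cathepsin K (Ctsk) at 4.85 (SE 0.61) and Csf1, and 2 lower, TRAIL (Tnfsf10) and Nfatc1. Of the other calcification inhibitors 5 of 9 were higher, led by the Wnt antagonist Sfrp1 at 6.75 (SE 0.82) and fetuin-A (Ahsg) at 5.79 (SE 0.82), and Car2 was lower. Only 8 genes of this list were tested in muscle. Sfrp1 was well above background on 12 aorta arrays and 7 muscle arrays, so its difference rests in part on muscle signals near background. Of the genes of phosphate and pyrophosphate handling 2 of 9 were higher and 3 lower.

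The next question was how the 10 genes differed between HFD and chow, in each strain and tissue. No member was called in any of these comparisons. In aorta, Tnfrsf11b had the highest mean HFD to chow ratio of the 8 genes in KO and lay above 0 in all 6 pairs of arrays. Enpp1 also had 6 of 6 positive ratios in aorta, and Bmp4 had 6 of 6 negative ratios in muscle.

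Over all probes, limma called 0 of 25865 (0%) in aorta of WT, 0 (0%) in aorta of KO and 8 (0.0309%) over both strains, against 1493, 2910 and 3913 at an unadjusted p under 0.05. Of the 8 genes, 3, 4 and 5 had such a p. In muscle, 0 of 25682 (0%) were called in WT, 1 (0.00389%) in KO and 74 (0.288%) over both strains, and 2, 0 and 4 of the 8 genes had an unadjusted p under 0.05, against 3098, 2181 and 4205 of all probes. The methods' t-test on the 3 ratios of a strain gave an unadjusted p under 0.05 for 1 of the 8 genes in WT aorta (Bmp4; 4.73% of all probes), for 1 in KO aorta (Enpp1; 6.77%) and for 3 in WT muscle (Tnfrsf11b, Bmp4 and Alpl; 8.28%), and for no probe after Benjamini-Hochberg adjustment. In muscle Tnfrsf11b was tested only through WT HFD, the group where it was highest, so its p-values there are no independent support.

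Tnfrsf11b in WT aorta had levels of -2.87, -1.06 and -1.35 on chow and of -0.37, -0.30 and -0.64 on HFD. In KO aorta it had levels of -2.84, -3.14 and -4.90 on chow and of -0.37, 0.72 and 0.88 on HFD. In both strains every HFD array was above every chow array. The log2 ratios by experiment were 2.49, 0.77 and 0.71 in WT (mean 1.33 ± 1.01, SD, n = 3) and 2.48, 3.86 and 5.78 in KO (4.04 ± 1.66, SD, n = 3). Without experiment 1 the means were 0.74 and 4.82. For KO the mean over 3 experiments is a 16.4-fold higher level on HFD, with limma's 95% interval of 2.47 to 5.60 on the log2 scale, an unadjusted p of 0.00056 and an adjusted p of 0.23.

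Over both strains the Tnfrsf11b ratio in aorta was 2.68 (SE 0.46, adjusted p = 0.12). Without pairing the HFD and chow arrays of an experiment, the same value passed the threshold (adjusted p = 0.037), and over the alternatives run the adjusted p lay between 0.037 and 0.47 with ratios of 2.40 to 2.87. The order of the 4 aorta group means was KO chow (-3.63 ± 1.11), WT chow (-1.76 ± 0.97), WT HFD (-0.44 ± 0.18) and KO HFD (0.41 ± 0.68), each an SD of 3 arrays. The arrays of WT chow and KO chow overlapped, since the lowest WT chow array (-2.87) lay just under the highest KO chow array (-2.84), and those of WT HFD and KO HFD also overlapped.

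In muscle Tnfrsf11b lay at -5.23, -5.74 and -6.17 on WT chow, at -4.21, -4.85 and -4.62 on WT HFD, at -5.22, -5.96 and -6.69 on KO chow and at -4.45, -4.46 and -6.88 on KO HFD. The diets did not overlap in WT and overlapped in KO. WT HFD was the only muscle group with all 3 arrays well above background. Tnfrsf11b was thus tested in muscle only through the group where it was highest, so its WT test is no independent support. The ratios were 1.01, 0.89 and 1.55 in WT (1.15 ± 0.35) and 0.77, 1.50 and -0.19 in KO (0.69 ± 0.84), and the pooled value was 0.92 (SE 0.24, adjusted p = 0.16). In experiment 3 the chow arrays of both strains and the HFD array of KO were not well above background, so the ratios of 1.55 and -0.19 rest on signals near background. Without experiment 1 the means were 1.22 and 0.65.

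Tnfrsf11a, the RANK receptor, gave different answers by probe. The brightest probe was well above background on all 24 arrays. In KO aorta it lay at -2.30, -0.75 and -0.34 on chow and at -4.37, -3.61 and -0.86 on HFD, so that the diets overlapped. There it had ratios of -2.07, -2.86 and -0.52 (-1.82 ± 1.19, adjusted p = 0.35) and in WT aorta of -0.40, -1.05 and 0.23. In muscle its ratios were above 0 in 6 of 6 pairs, with 0.80 ± 0.45 in WT and 0.75 ± 0.94 in KO (over both strains 0.78, SE 0.27, adjusted p = 0.23). The dimmer probe, which 17 of 24 arrays placed well above background, had a mean ratio of 0.72 in KO aorta and of 0.78 in WT aorta, opposite in sign to the brighter one. In muscle it had 0.78 in WT and -0.46 in KO, again opposite in KO. Without experiment 1 the brighter probe had means of -1.69 in KO aorta and 0.21 in KO muscle. No direction for Tnfrsf11a can be given across its probes in aorta or in KO muscle.

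Enpp1 had ratios of 1.28, 3.86 and 0.18 in WT aorta (1.77 ± 1.89) and of 3.29, 1.95 and 3.31 in KO aorta (2.85 ± 0.78), with means of 2.02 and 2.63 without experiment 1. Its levels were 0.51, -1.31 and -0.01 on WT chow, 1.80, 2.55 and 0.17 on WT HFD, -1.56, 0.43 and -2.96 on KO chow and 1.72, 2.39 and 0.35 on KO HFD. In each strain 1 HFD array, that of experiment 3, lay within the chow range, and the others lay above it. The pooled ratio was 2.31 (SE 0.48, adjusted p = 0.16), with adjusted p between 0.10 and 0.38 over the alternatives. In muscle the ratio was 0.21 (SE 0.26, adjusted p = 0.72).

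Alpl, which acts against Enpp1, had aorta levels of 1.66, 1.89 and 1.60 on WT chow and of 2.16, 2.94 and 2.94 on WT HFD, with no overlap, and of 2.20, 2.34 and 1.59 on KO chow and 1.85, 3.49 and 2.47 on KO HFD, which overlapped. It had ratios of 0.50, 1.04 and 1.35 in WT aorta and of -0.36, 1.15 and 0.88 in KO aorta, and over both strains 0.76 (SE 0.26, adjusted p = 0.27). Without experiment 1 the means were 1.20 in WT and 1.01 in KO. In muscle its 6 ratios lay between 0.05 and 0.59, with a pooled value of 0.37 (SE 0.15, adjusted p = 0.28).

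Bmp4 was the one member with a pooled ratio below 0 in both tissues. In WT aorta its levels were 3.04, 3.37 and 3.41 on chow and 2.32, 2.78 and 2.47 on HFD, and in WT muscle 2.24, 2.62 and 2.30 on chow and 0.62, 1.28 and 1.58 on HFD. The diets did not overlap in WT in either tissue. In muscle the ratios were -1.61, -1.34 and -0.73 in WT and -0.45, -0.88 and -0.35 in KO, and the pooled value was -0.89 (SE 0.18, adjusted p = 0.11, between 0.054 and 0.41 over the alternatives). In aorta the pooled value was -0.53 (SE 0.21, adjusted p = 0.32), from -0.75 ± 0.18 in WT and -0.31 ± 0.61 in KO. Without experiment 1 the means were -0.76 and -0.53 in aorta and -1.04 and -0.62 in muscle.

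Mgp, which needs vitamin K to become active, had a pooled ratio of 0.38 in aorta (95% interval -0.11 to 0.86, adjusted p = 0.42) and 0.26 in muscle (-0.30 to 0.83, adjusted p = 0.61). Runx2 lay at -3.69, -2.13 and -3.27 on KO chow and at -1.46, -1.99 and -2.23 on KO HFD in aorta, where only the chow array of experiment 2 reached the HFD range. It had a ratio of 1.14 ± 1.05 in KO aorta (adjusted p = 0.43) and of 0.21 ± 0.48 in WT aorta, and its second probe gave 1.18 and 0.15. Without experiment 1, where the KO ratio was 2.23, the means were 0.59 in KO and 0.44 in WT.

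Osteopontin had the widest range of the 8 genes in aorta. There Spp1 had levels of -2.33, 3.04 and 2.38 on WT chow, -0.17, -3.16 and -0.55 on WT HFD, -5.45, 1.55 and -5.71 on KO chow and 0.11, -0.82 and -1.57 on KO HFD. The range within each chow group was wider than the distance between any group means, and the pooled ratio was 0.06 (SE 1.35). In muscle the 12 arrays lay between -3.02 and -0.08.

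**Figure D3:**
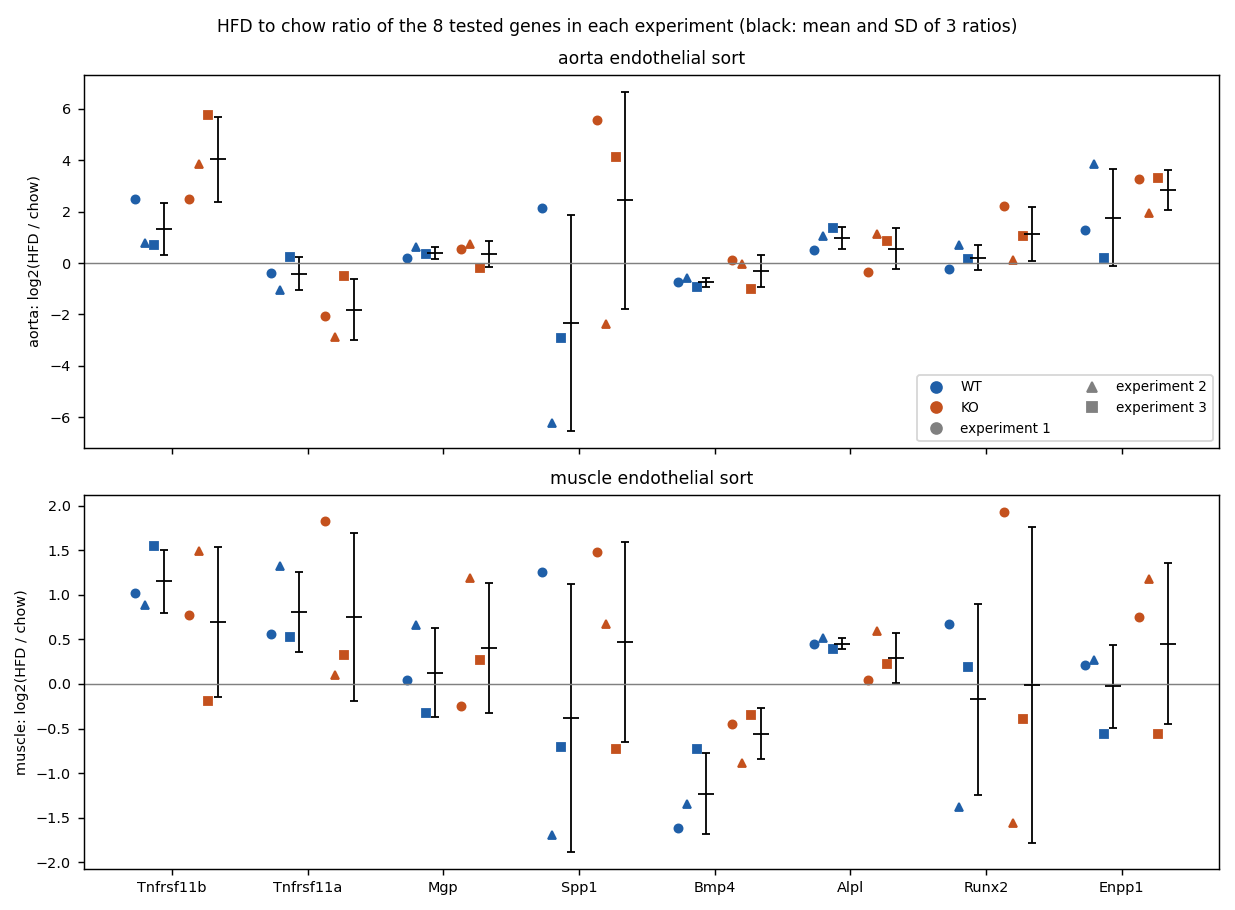
Log2 HFD to chow ratio (y axis, a separate scale for each tissue) of the 8 tested genes (x axis) in each experiment, with WT in blue and KO in orange and a symbol for each experiment; black marks are the mean and SD of 3 ratios. Tnfrsf11b and Enpp1 lie above 0 in all 6 aorta pairs and Bmp4 lies below 0 in all 6 muscle pairs, and none was called.

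Marker sums of other cell types moved with the diet in aorta. The adipocyte markers (12 genes, 10 of them well above background on all 12 arrays and Lep on none) were lower on HFD in 6 of 6 pairs, with log2 ratios of -2.26 to -1.91 in WT and -3.54 to -1.52 in KO. The platelet markers were lower in 6 of 6 pairs (-3.84 to -0.64) and the macrophage markers in 6 of 6 (-1.12 to -0.21), with CD45+ cells gated out. The cartilage markers were higher in 6 of 6 pairs (0.16 to 2.39), while the fibroblast sum ran from -0.01 to 0.93, the smooth muscle sum from -0.57 to 0.85 and the endothelial sum from -1.56 to 0.53. In muscle the adipocyte sum was lower on HFD in 6 of 6 pairs (-0.92 to -0.15), and the fibroblast sum (0.06 to 2.66) and the cartilage sum (0.12 to 2.21) were higher in 6 of 6. The part of these cells in the ratios of Tnfrsf11b, Enpp1 and Bmp4 was not tested.

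**Figure D4:**
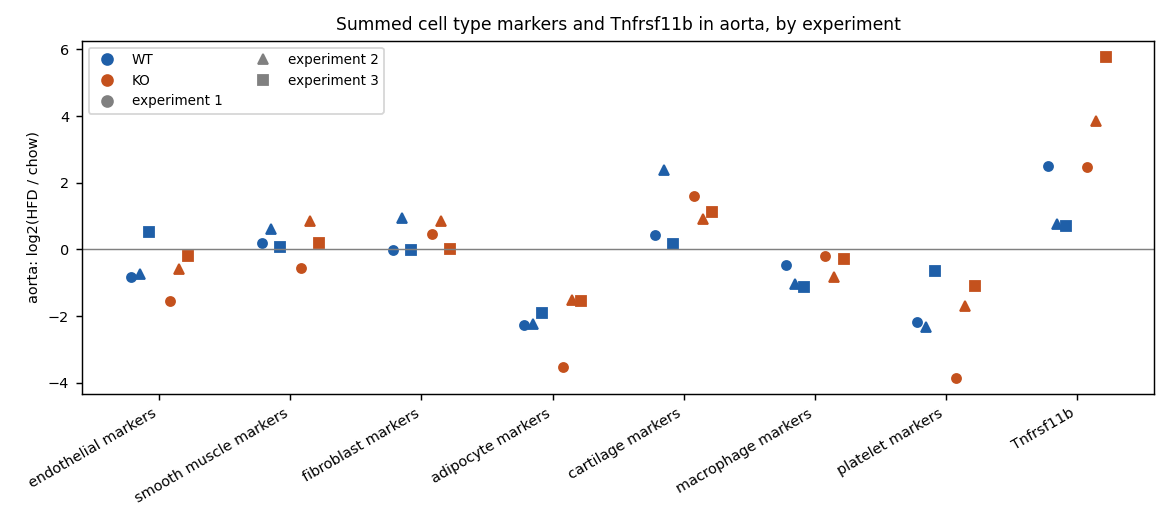
Log2 HFD to chow ratio in aorta (y axis) of the summed signal of 7 marker lists and of Tnfrsf11b (x axis), with WT in blue, KO in orange and a symbol for each experiment. The adipocyte and platelet sums lie below 0 and the cartilage sum and Tnfrsf11b lie above 0 in all 6 pairs.

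Of the pathway genes, none was called between diets over both strains in either tissue. In aorta 67 were tested, with 13 above and 9 below 0 at an unadjusted p under 0.05, beside 3913 of all 25865 probes, and a median ratio of 0.21 beside 0.01. The BMP antagonist gremlin (Grem1) was not well above background on any KO chow array, and its difference was not called (adjusted p = 0.20). Its mean level on KO HFD was 9.66-fold above the mean of the lowest signals marked well above background on the KO chow arrays. In WT aorta its ratios were 0.51, 2.75 and 0.76. Over both strains the 2 genes with the smallest p in each list were Grem1 and Bmpr1b (1.31, adjusted p = 0.21) of the BMP pathway, Traf3 (0.78) and Tnfrsf10b (-1.74) of the RANK-OPG axis, the cartilage factor Sox9 (3.27) and Phex (3.41) of the bone factors, Ggcx (1.11) and Car2 (-1.61) of the inhibitors, and the AMP-hydrolysing enzyme Nt5e (-1.33) with Entpd1 (-0.82) of phosphate handling. Their adjusted p lay between 0.12 and 0.30. In muscle 56 were tested, with 5 above and 5 below 0 at an unadjusted p under 0.05, beside 4205 of all 25682 probes, and a median of 0.07 beside -0.0080. The share of pathway genes in muscle was close to that of all probes. The smallest p there was that of Car2 (-0.84, SE 0.16, adjusted p = 0.11).

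Whether the response to diet differed between the strains or tissues was tested directly. Between the strains no probe was called in aorta (0%) or in muscle (0%), with 677 of 25865 and 1059 of 25682 at an unadjusted p under 0.05. The Tnfrsf11b response in aorta was larger in KO by 2.71 (SE 0.93, unadjusted p = 0.023, adjusted p = 1.00), and an exact two-sided permutation test of the 3 KO against the 3 WT ratios gave p = 0.20, where 0.10 is the smallest value that 3 against 3 allow. By experiment the difference was -0.02, 3.09 and 5.06, so that it was near 0 in experiment 1 and 4.08 without that experiment. In experiment 1 aortic Tnfrsf11b differed by 0.03 between KO and WT on chow. There the 35 strain probes set WT (0.0421) and KO (1.02) apart. On HFD it differed by 0.01, and the same probes gave 0.196 for WT and 0.335 for KO. Whether these HFD positions bear on the response was not tested. Of the other members in aorta, Tnfrsf11a differed by -1.41 (95% interval -3.05 to 0.22), Enpp1 by 1.07 (-1.24 to 3.39) and Runx2 by 0.93 (-0.52 to 2.38). The difference for Mgp was -0.02 (-0.98 to 0.95). Without experiment 1 these were -1.28 for Tnfrsf11a, 0.61 for Enpp1, 0.16 for Runx2 and -0.21 for Mgp. In muscle the 8 differences ran from -0.46 for Tnfrsf11b to 0.85 for Spp1, each with an interval that held 0, and that for Bmp4 was 0.67 (-0.18 to 1.51). Without experiment 1 they ran from -0.71 for Tnfrsf11a to 1.17 for Spp1, with 0.42 for Bmp4. Spp1 in aorta had a higher ratio in KO in each experiment, by 3.40, 3.83 and 7.07 (4.77, SE 2.69, adjusted p = 1.00; 5.45 without experiment 1).

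Between the tissues 0 of 27387 probes (0%) were called and 2530 had an unadjusted p under 0.05. The aortic response exceeded that of muscle by 1.76 for Tnfrsf11b (SE 0.56, adjusted p = 0.38) and by 2.10 for Enpp1 (SE 0.60, adjusted p = 0.32), and for the brighter Tnfrsf11a probe it was lower (-1.89, SE 0.46, adjusted p = 0.24). For Mgp the tissues differed by 0.11 (95% interval -0.58 to 0.80), for Bmp4 by 0.36 (-0.23 to 0.95) and for Alpl by 0.39 (-0.26 to 1.04).

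The last comparisons were between KO and WT on each diet. No member was called. In aorta limma called 3 of 25865 probes on chow (0.0116%) and 1 on HFD (0.00387%), in muscle 0 of 25682 on chow (0%) and 0 on HFD (0%), and over all arrays 38 of 27387 (0.139%). At an unadjusted p under 0.05 there were 1140, 297, 622, 810 and 1190 probes, and 2, 0, 1, 1 and 0 of the 8 genes. The 1 gene in HFD muscle was Runx2, which was tested there only through the KO groups.

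On chow, aortic Tnfrsf11b differed by -1.87 between KO and WT (SE 0.61, unadjusted p = 0.011, adjusted p = 0.85). Within experiments 1, 2 and 3 the difference was 0.03, -2.08 and -3.55, and without experiment 1 it was -2.81 (adjusted p = 0.37). On HFD the difference had the other sign, 0.85 (SE 0.61, adjusted p = 1.00), with 0.01, 1.01 and 1.51 by experiment. Spp1 on chow differed by -4.24 (SE 1.88, adjusted p = 1.00), with -3.12, -1.49 and -8.10 by experiment.

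Bmp4 in muscle of chow-fed mice lay at 2.24, 2.62 and 2.30 in WT and at 1.51, 1.38 and 0.99 in KO, with no overlap. The difference was -1.09 (SE 0.30, unadjusted p = 0.0036, adjusted p = 1.00) and -1.28 without experiment 1. On HFD it was -0.42 (SE 0.30), with 0.44, -0.78 and -0.93 by experiment and -0.86 without experiment 1. In aorta it was -0.13 on chow and 0.31 on HFD (-0.04 and 0.20 without experiment 1). Bmp4 lies on chromosome 14, as does the deleted Lgals3, with 10 protein-coding genes annotated between them. Of the 26 probes with a gene symbol among the 38 called between the strains over all arrays, 13 were for genes of chromosome 14. The share of chromosome 14 among all tested probes is not given here, so this count has no background to be read against. Whether the position of Bmp4 bears on its level was not tested.

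Runx2 in muscle was higher in KO by 1.73 on chow (SE 0.83, adjusted p = 1.00) and by 1.90 on HFD (SE 0.83, unadjusted p = 0.044, adjusted p = 1.00). Within experiments it differed by -0.09, 2.34 and 2.94 on chow and by 1.17, 2.16 and 2.35 on HFD, and without experiment 1 by 2.64 and 2.26 (adjusted p = 0.91 and 0.56). The probe was not well above background on 3 of the 6 WT muscle arrays, and the second Runx2 probe differed by 1.55 on chow and 0.41 on HFD. All 3 arrays passed in each KO muscle group and in neither WT group. Runx2 was thus tested in muscle only through the strain where it was higher, so these p-values are no independent support. For Mgp, Alpl and Enpp1 the unadjusted p of limma was between 0.25 and 0.98 in all 4 comparisons, and their differences ran from -1.09 to 0.43, or from -0.60 to 0.66 without experiment 1.

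**Figure D5:**
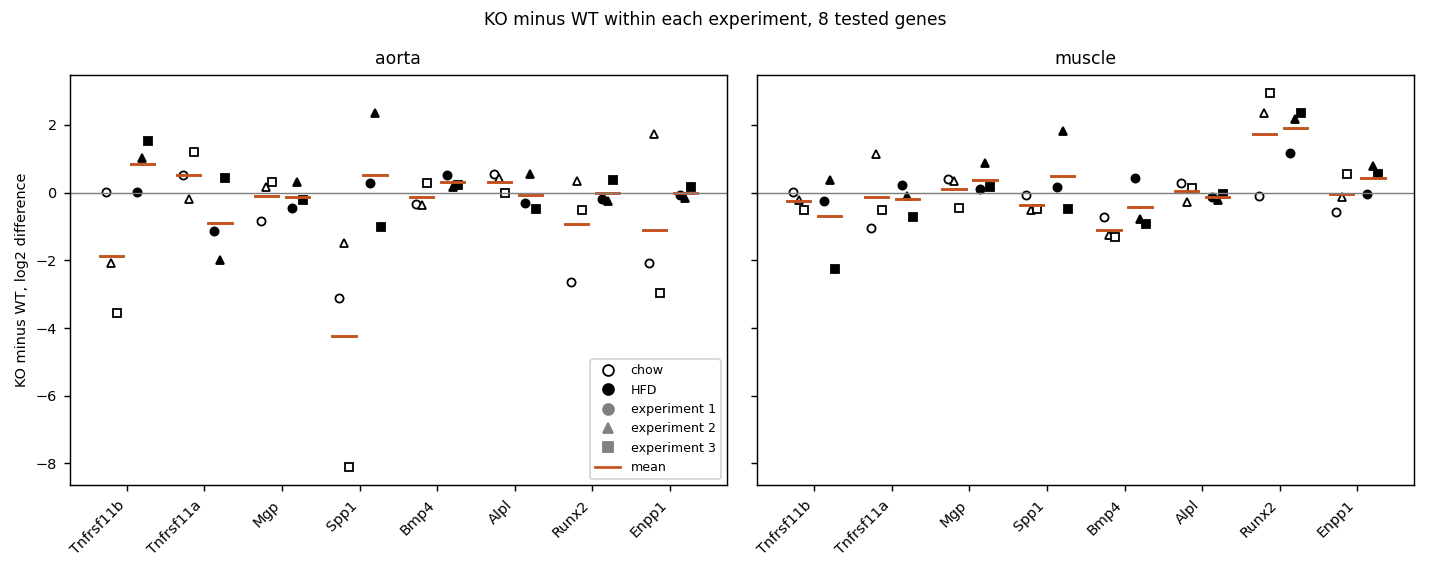
KO minus WT difference (y axis, log2) of the 8 tested genes (x axis) within each experiment, in aorta (left) and muscle (right), on chow (open) and HFD (filled), with means as orange lines. Tnfrsf11b in aorta sits near 0 in experiment 1 on both diets and apart from 0 in experiments 2 and 3, and Bmp4 in muscle on chow lies below 0 in all 3.

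Genes whose levels followed a member most closely over the 12 arrays of a tissue were found by Pearson's r, as a description over arrays that share experiments and slides. For Tnfrsf11b in aorta, among 13857 genes, these were Tub (r = 0.926), the complement component Hc (0.914) and Pnoc (0.897). For Mgp they were Rasl12 (0.960), Tekt2 (0.958) and Lmna (0.958) in aorta and Casp12 (0.891), Eid1 (0.889) and Nedd4 (0.887) in muscle. For Bmp4 they were Nt5e (0.906), Adh7 (0.857) and Agtr1a (0.847) in aorta and Rab3ip (0.921), Tcf3 (0.902) and Ipmk (0.893) in muscle. For Spp1 they were Ccdc189 (0.851), Itga2 (0.832) and Pcdhac2 (0.828) in aorta and Tacc3 (0.901), Pgm3 (0.853) and Tet2 (0.844) in muscle. The lists of the 3 genes named for both tissues shared no gene.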

How the data were processed

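Expression was measured on 24 one-colour Agilent whole mouse genome arrays. Per the file headers, Feature Extraction 10.5.1.1 (9.1 in the submitters' processing notes) made the deposited processed intensities by background subtraction. The authors also deposited log2 values, which equal log2 of these intensities plus 1 constant per array that sets a common 75th percentile within a tissue. Here the log2 of each intensity relative to its array's 75th percentile was used. Control spots and outlier spots were left out, spots of a probe were averaged, and of 41174 probes those well above background on all arrays of 1 group or more in a tissue were tested. Probes were named by their accession through the RefSeq gene table (27198 probes, 18539 symbols).

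HFD was compared with chow with limma 3.58.1 (R 4.3.3) and strain by experiment as a block, since the labels give each experiment its own trial number and the study takes ratios within experiments. Same-numbered HFD and chow arrays of a strain deviated from their group means with a correlation of 0.0077 to 0.46 (median 0.23, 12 pairs); over all 36 pairs of arrays that share a tissue and a number, strains included, it was -0.057 to 0.62 (median 0.28). Strains were compared without a block, with the slide as a block as an alternative, and tissues with the slide as a random block (consensus correlation 0.28), because each of the 6 slides holds 1 tissue and experiment. The experiment 1 arrays were scanned on another day than the rest. Within a tissue, p-values measure the spread between pools of mice. The aorta and muscle arrays of a group and experiment came from the same pool. The strain comparison over all arrays, the diet response in aorta minus muscle and the main comparison of tissues had no term for this. Their p-values and calls therefore count the tissues of a pool as separate, as does the choice of probes that separated the strains. For the comparison of tissues a block by pool of animals was an alternative. The block by slide does not join the tissues of a pool. The array number limits the precision, with 3 arrays in each group.

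Named were all members, the 3 genes most like Tnfrsf11b, Mgp, Spp1 and Bmp4, and, of the pathway lists, called genes with the largest change or, where none was called, the 2 genes of each list with the smallest p. Not all genes of the last rules are printed. Other called genes named between tissues (Col1a1, Bmpr1b, Eng, Csf1, Tnfsf10, Nfatc1, Car2 and Msx1) were chosen after their values were seen. The members and lists were chosen with earlier results of these data known.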

Additional observations from a re-analysis of the deposited data

Results flagged for a closer look

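Tnfrsf11a was singled out because, in KO, every pair of arrays moved one way in aorta and the other way in muscle. The mean log2 HFD to chow ratio of its brightest probe was -1.82 in KO aorta (below 0 in 3 of 3 pairs) and 0.75 in KO muscle (above 0 in 3 of 3 pairs). Without experiment 1 these were -1.69 and 0.21. This difference was not tested in KO alone. Over both strains the difference between the tissues was -1.89 (SE 0.46, adjusted p = 0.24, between 0.16 and 0.72 over 10 alternatives). The dimmer probe of the gene had ratios of 0.72 in KO aorta and -0.46 in KO muscle, the opposite signs.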

How the results depend on the processing

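Alternatives for the 8 genes covered the background correction (normexp), quantile normalization, the deposited log2 values, no filter or a stricter filter on dim probes, the pairing, the mean of all probes of a gene, the methods' t-test and leaving out each experiment. Of 1254 recomputed differences, 1182 kept their sign and their side of the threshold and 68 changed sign from a value within its standard error. The diet comparisons had the replicate block in the main setting. Without it, 1 gene was called in aorta over both strains (Tnfrsf11b, 2.68, adjusted p = 0.037), against 0 with it. Blocking by slide gave 0 called in every diet and strain comparison, and blocking by pool of animals left the 5 calls between tissues as they were. The block changed no other call of these genes. Under the stricter filter 3 genes were called between tissues (Mgp, Bmp4 and Alpl) because Tnfrsf11b and Runx2 were then not tested. Leaving out experiments gave 5 genes called between tissues in each case and 0 to 0 in every other comparison. A change of sign was seen for Bmp4 in KO aorta (from -0.53 to 0.04 as each experiment was left out, above 0 without experiment 3), for Mgp over both strains in muscle (-0.065 to 0.45, below 0 without experiment 2) and for Tnfrsf11b between the strains in HFD muscle (-1.25 to 0.073, above 0 without experiment 3). None of these was called, and the cause was not tested.

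Counts over all probes depended on the setting. They ran from 0 (without experiment 1) to 58 (block by slide) against 8 for the diets in aorta over both strains, from 0 to 274 against 74 in muscle, and from 2989 (without experiment 2) to 15402 (block by pool of animals) against 7718 between tissues. For the single strains they reached 4 (WT) and 9 (KO) in aorta against 0, and 29 (WT, stricter filter) and 5 (KO) in muscle against 0 and 1. They reached 25 for the response in aorta minus muscle against 0. Between the strains they ran from 0 (without experiment 2) to 60 (block by slide) against 38 over all arrays, from 0 to 4 against 3 in chow aorta and from 0 to 1 against 1 in HFD aorta. Probes not well above background set the limit for Tnfsf11 on all arrays, for Bmp2 on most arrays and for Tnfrsf11b and Runx2 in muscle.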

Other observations

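Of the 68 pathway genes tested, none was called between KO and WT over all arrays, and 2 lay above and 3 below 0 at an unadjusted p under 0.05.

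Marker sums not yet described also differed between the sorts. The lymphatic endothelial markers summed to 24.01 to 96.8 times the 75th percentile in aorta and to 0.684 to 28.9 in muscle, ranges that overlapped at their ends. The skeletal muscle fibre markers summed to 1.07 to 4.91 in aorta and 15.2 to 107 in muscle. The pericyte sums (50.6 to 111 in aorta, 56.0 to 133 in muscle), the mesothelial sums (0.111 to 0.487 and 0.0299 to 0.387) and the Schwann cell sums (0.689 to 4.78 and 2.54 to 6.26) overlapped between the tissues. Of the 6 mesothelial markers, 1 was well above background on all aorta arrays and 0 on all muscle arrays, so these sums lie near background. Cdh19 of the Schwann cell list was not well above background on any array.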
